A study of Homo sapiens with 20 samples.

Results

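Semaphorins, their plexin receptors and the neuropilin co-receptors make up a guidance system that was read here in TPC-1 cells, a line established from a human papillary thyroid carcinoma. The members were all protein-coding genes of the deposited table named as SEMA3 to SEMA7, as plexins A to D, or as NRP1 and NRP2. This gave 31 genes of the 54261 features, namely 20 semaphorins, 9 plexins and 2 neuropilins. The coculture group held 6 libraries of TPC-1 cells kept for 48 h with PMN-MDSCs, polymorphonuclear myeloid-derived suppressor cells, which are immature neutrophil-like cells that restrain T cells. The control group held 4 libraries of untreated TPC-1 cells, also at 48 h. The labels do not say how the coculture was set up, where the PMN-MDSCs came from or whether they were taken away before RNA was extracted. Whether each library had a culture of its own is not stated either, and every p-value therefore reflects the spread between these libraries alone, which may be technical.

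Semaphorins are secreted or membrane-bound proteins that share an extracellular sema domain and were first known for steering growing axons. Plexins receive them and carry a cytoplasmic domain that switches off small GTPases of the Ras family, which loosens adhesion and reshapes the cytoskeleton. Secreted class 3 semaphorins mostly need a neuropilin beside the plexin, and neuropilins also bind VEGF. In carcinomas the family is known for acting on migration, invasion and vessel growth, and several members also act between immune cells.

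Library totals ran from 40237801 to 48197608 counts, and the 31 genes took 0.215% to 0.331% of a library. Coculture 1 and 2 stood apart from the other 8 libraries on the first principal component of all tested genes (50.7% of the variance). For several members, but not for every gene that was highest there, values are therefore also given without them. The cell identity was in part that of thyroid epithelium. PAX8, a thyroid transcription factor, was at 508 ± 11.2 CPM (counts scaled to 1e6 per library, SD, n = 4) in the controls, while the thyroid factor NKX2-1 and the thyrotropin receptor TSHR had 0 control counts. The keratins KRT8 and KRT18 were at 240 ± 28.6 and 350 ± 43.9 CPM in the controls, and the epithelial cadherin CDH1 had 0 control counts. Of 25 leukocyte and myeloid markers, 15 could be tested. Of these, 13 were called higher in coculture (edgeR adjusted p under 0.05), against 1.14% of all genes tested. Their summed level was 142 to 165 CPM in controls, most of it LAPTM5 at 142 ± 9.94 CPM, and 177 to 234 CPM in coculture. Of the 25, 12 had 0 counts in every control, and FCGR3B, CXCR2, ELANE and C1QA had no count in any library. T, B and NK cell markers summed to at most 0.0989 CPM in controls and to between 0.0715 and 3.11 CPM in coculture. Endothelial and fibroblast markers summed to between 3.18 and 6.49 CPM in controls and between 3.00 and 145 CPM in coculture, with the upper value in coculture 1.

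The regulatory start of 3 members on which the results below turn is shown here, as 300 bases from 250 before to 50 after a RefSeq transcription start (GRCh38.p14), 5′ to 3′ on the strand of the gene. PLXNA4 is the member called between groups, SEMA4B the most abundant, and SEMA3C a member called only when coculture 1 and 2 were both left out, in a fit that also called PLXNA4. Capitals mark the GC box GGGCGG on either strand. The windows are chr7:132576421-132576720 on the minus strand for PLXNA4, chr15:90184670-90184969 on the plus strand for SEMA4B, and chr7:80919002-80919301 on the minus strand for SEMA3C. Where RefSeq lists several starts, the one nearest the start of the gene in the deposited table was taken. The PLXNA4 window lies inside the interval of the deposited table and not at its edge. Its start is 72218 bases from that of the gene there, against 0 for SEMA4B and 300 for SEMA3C. It may therefore not be the start of the PLXNA4 transcripts counted.
PLXNA4: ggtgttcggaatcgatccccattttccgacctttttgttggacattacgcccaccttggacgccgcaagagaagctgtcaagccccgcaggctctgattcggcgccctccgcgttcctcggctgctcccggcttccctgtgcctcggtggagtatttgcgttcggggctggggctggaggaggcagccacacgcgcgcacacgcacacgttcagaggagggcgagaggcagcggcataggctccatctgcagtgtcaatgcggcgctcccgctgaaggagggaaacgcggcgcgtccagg
SEMA4B: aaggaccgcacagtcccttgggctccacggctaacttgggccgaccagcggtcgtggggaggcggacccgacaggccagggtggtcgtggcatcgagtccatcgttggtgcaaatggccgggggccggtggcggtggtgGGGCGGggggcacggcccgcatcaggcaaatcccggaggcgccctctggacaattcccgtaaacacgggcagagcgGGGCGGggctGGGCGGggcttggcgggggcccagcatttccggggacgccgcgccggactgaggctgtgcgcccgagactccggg
SEMA3C: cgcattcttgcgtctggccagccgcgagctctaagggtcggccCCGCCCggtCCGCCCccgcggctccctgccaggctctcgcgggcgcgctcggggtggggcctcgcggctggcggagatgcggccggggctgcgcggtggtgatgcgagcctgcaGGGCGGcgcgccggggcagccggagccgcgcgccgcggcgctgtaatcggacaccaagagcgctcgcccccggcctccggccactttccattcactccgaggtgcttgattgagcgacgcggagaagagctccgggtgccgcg

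Windows were found for 27 of the 31 members, and GC boxes stood in 21 of them (77.8%), against 45% of all 35116 windows in the table, where a gene can have several. SEMA4B and SEMA3C each held 3 GC boxes and PLXNA4 held 0. CpG pairs numbered 30 in the PLXNA4 window, 32 in that of SEMA4B and 46 in that of SEMA3C, against a median of 14 over all windows. The NF-kB motif, searched on both strands and free to overlap a GC box, was found in 2 members, PLXNA1 and SEMA6D (7.41%, against 11.3% of all windows). The AP-1 motif TGANTCA was found in 0 members and in 7.71% of all windows. These matches describe the letters of the windows and do not show binding.

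In untreated TPC-1 cells the system was led by membrane-bound semaphorins and by plexin B2. Levels between genes are compared as RPKM, CPM divided by the gene length in kilobases given in the deposited table. SEMA4B, a transmembrane class 4 semaphorin, was the highest at 143 ± 27.7 RPKM (SD, n = 4), and its range did not overlap that of the next gene. SEMA6B, a transmembrane ligand of A plexins, followed at 78.6 ± 11.4 RPKM, and SEMA7A, which is held by a lipid anchor and binds integrin beta 1 and plexin C1, at 65.7 ± 10.3. PLXNB2, the receptor of SEMA4C, was at 47.7 ± 4.02 RPKM. The ranges of SEMA6B and SEMA7A overlapped, as did those of SEMA7A and PLXNB2.

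NRP1, NRP2 and PLXNA1, which together form receptors for class 3 semaphorins, came next at 33.7 ± 9.35, 23.5 ± 2.31 and 22.3 ± 2.0 RPKM. The ranges of NRP1 and NRP2 overlapped, as did those of NRP2 and PLXNA1, while every control value of NRP1 lay above those of PLXNA1. SEMA4C at 12.4 ± 0.704, SEMA3C at 9.89 ± 1.07 and PLXND1, the receptor of SEMA3E, at 7.36 ± 0.632 RPKM did not overlap each other. PLXNB3, SEMA4D, SEMA3F, PLXNA2 and SEMA4F lay between 4.54 and 3.49 RPKM, each overlapping its neighbour. PLXNB1, the receptor of SEMA4D, SEMA6C and PLXNA3 lay between 1.61 and 1.17 RPKM. SEMA3A, PLXNA4, SEMA4G, SEMA5A, SEMA3E, SEMA6A and PLXNC1 were below 1 RPKM, from 0.923 for SEMA3A down to 0.0730 for PLXNC1.

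**Figure D1:**
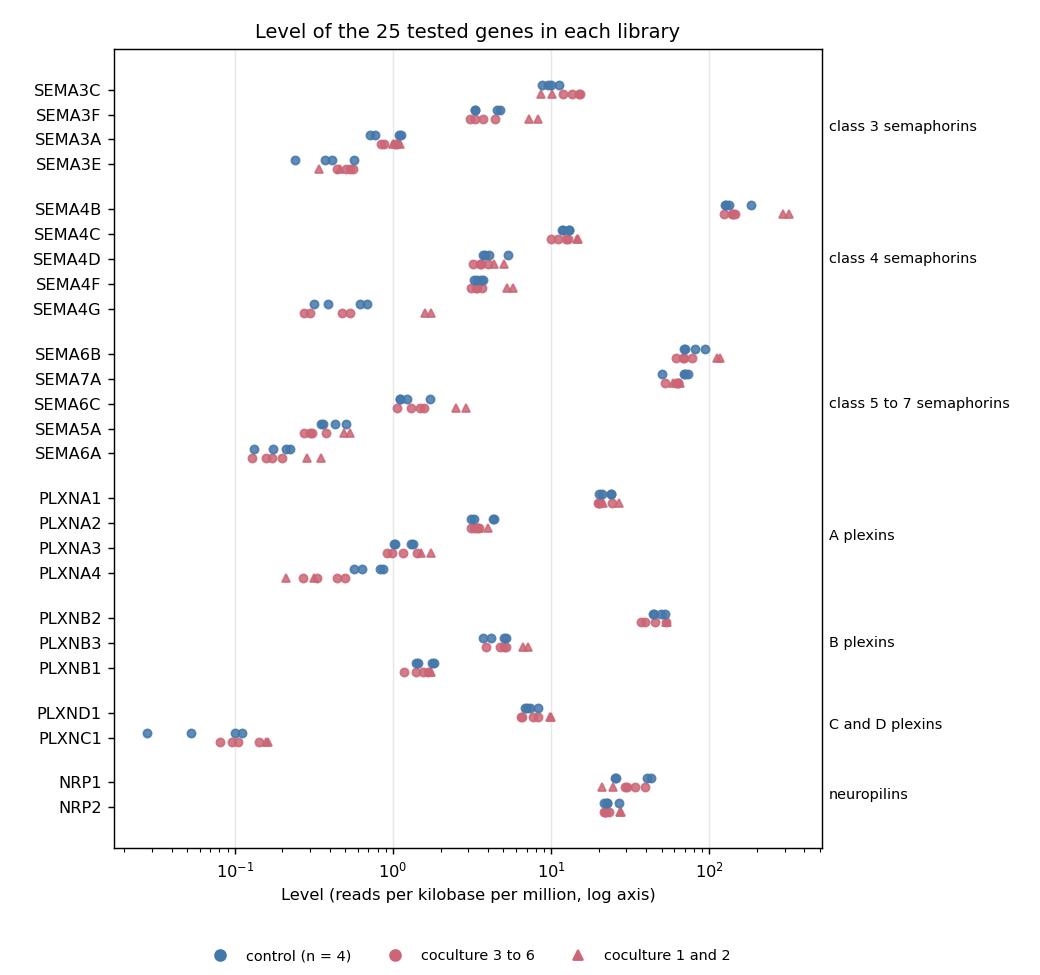
Level of each of the 25 tested genes in each library, in RPKM on a log axis, grouped by role; blue points are the 4 controls, red points coculture 3 to 6 and red triangles coculture 1 and 2. SEMA4B lies highest in every group, and PLXNA4 is the gene whose red and blue symbols do not overlap.

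Of the 31 members, 25 had enough counts to be tested. The other 6 were the secreted SEMA3B, SEMA3D and SEMA3G and the membrane-bound SEMA4A, SEMA5B and SEMA6D. SEMA5B had 4 counts in all 10 libraries, 1 in the controls and 3 in coculture. SEMA3B had 6 control and 14 coculture counts, of which 12 were in coculture 1. SEMA3D had 9 control and 36 coculture counts, 19 of them in coculture 2, and SEMA6D had 11 and 16. SEMA3G had 39 control counts and 29 coculture counts. SEMA4A, a semaphorin also known from dendritic cells, had 1 or 2 counts in each control and between 0 and 10 in a coculture library, 6 against 34 in sum. Counts this low, where 3 counts stand for 0.0632 to 0.0758 CPM, did not allow a comparison.

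The comparison of coculture with control asked which of these genes differed after 48 h with PMN-MDSCs. PLXNA4 was the 1 member called. It encodes plexin A4, which takes class 3 semaphorins together with neuropilins and binds SEMA6A and SEMA6B directly. The controls held 11.3, 11.7, 8.61 and 7.70 CPM in libraries 1 to 4. The coculture libraries held 2.84, 4.32, 6.01, 4.49, 6.77 and 3.64 CPM in libraries 1 to 6. Every coculture library lay below every control, and the lowest value was that of coculture 1. PLXNA4 fell from 9.83 ± 1.98 CPM (n = 4) to 4.68 ± 1.47 CPM (n = 6), to 0.476 of the control level. Its log2 fold change was -1.07 ± 0.23 (SE, 95% interval -1.57 to -0.58), with an edgeR adjusted p of 0.0399 over all 15629 genes tested. In bulk libraries, fewer cells of a type and less RNA per cell cannot be told apart.

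With coculture 1 and 2 left out, which was decided once the data had been seen, PLXNA4 stood at -0.93 ± 0.20 with an edgeR adjusted p of 0.0296. Leaving out single libraries moved its log2 fold change between -1.21 and -0.96, and 7 of the 10 omissions ended the call. The edgeR adjusted p was then 0.0738 without coculture 2, 0.0925 without coculture 4 and 0.106 without coculture 6. It was 0.138 without control 1, 0.139 without control 2, 0.0931 without control 3 and 0.0662 without control 4. PLXNA4 lies on chromosome 7 from 132123332 to 132648688 on the minus strand in the deposited table. Of 3 noncoding features that overlap it, 2 had 0 counts and the other had 2 counts over all libraries, against 2888 for PLXNA4.

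With edgeR, 0 of the 25 tested members were higher and 1 was lower. Of all genes, 1.14% were called higher and 0.186% lower, 1.32% in either direction. At an unadjusted p under 0.05, edgeR counted 0 members higher and 1 lower, against 9.66% of all genes in either direction. With DESeq2 and with limma-voom, 0 were higher and 1 lower after adjustment, and each had 1 member higher at an unadjusted p under 0.05. Groups without overlap occurred for 1 of the 25 members (4%), PLXNA4, against 3.62% of all genes. Coculture lay above every control for 0 members, against 2.45% of all genes, and below for 1, against 1.17%. The median log2 fold change was 0.10 over the 25 members and 0.01 over all genes, and the median of its absolute size was 0.14 in both. Of the 24 members not called, 20 had a 95% interval that stayed within 1 log2 unit of 0 on either side. The other 4 were PLXNC1, SEMA4G, SEMA6C and SEMA4B, whose intervals reached 1.59, 1.88, 1.08 and 1.05. For these, a 2-fold difference lay within the interval.

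**Figure D2:**
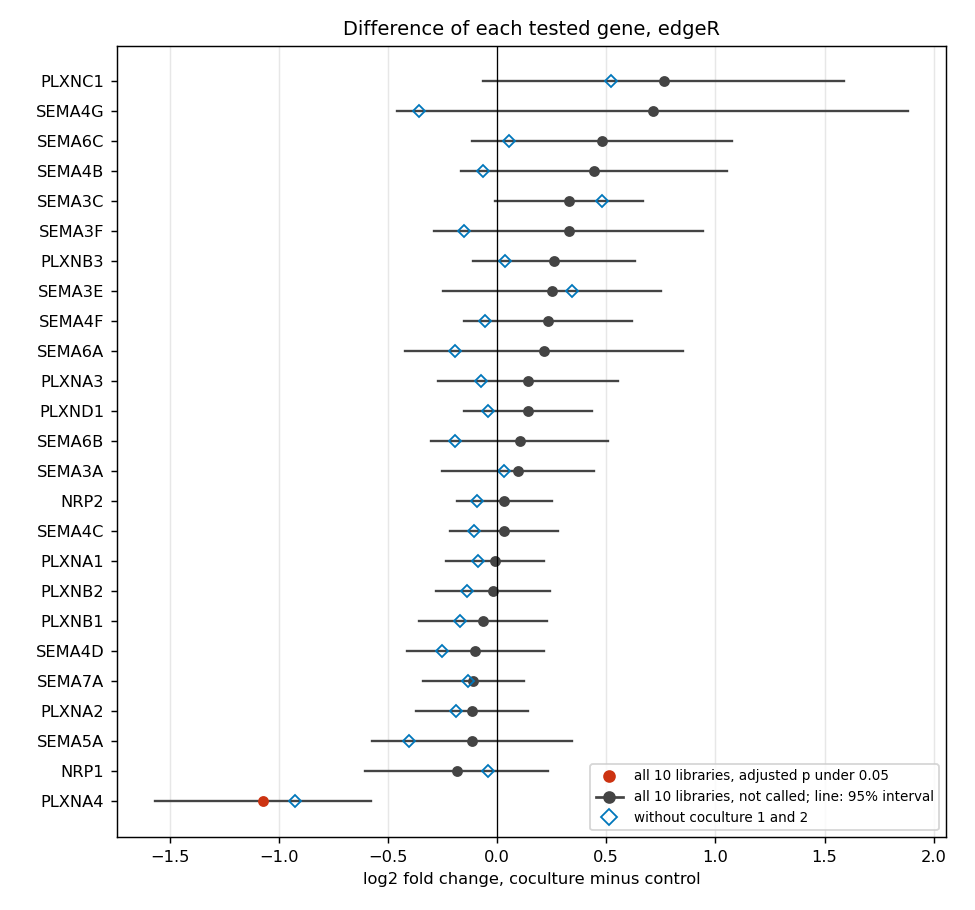
Log2 fold change of each tested gene, coculture minus control (horizontal axis), with all 10 libraries (points with 95% intervals) and without coculture 1 and 2 (open diamonds). PLXNA4, in red, is the gene called with all libraries; 16 points lie above 0 with all libraries and 6 diamonds lie above 0 without coculture 1 and 2.

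Among secreted class 3 semaphorins, 4 of 7 were tested and 0 called. SEMA3C, a class 3 ligand that acts through NRP1 and NRP2, was the most abundant of the class. Its control libraries held 58.4, 49.6, 51.5 and 45.1 CPM, and its coculture libraries 52.8, 44.7, 61.9, 77.8, 69.8 and 78.7 CPM. Coculture 3 to 6 lay above all 4 controls, while coculture 1 lay among them and coculture 2 just below the lowest. With all libraries the log2 fold change was 0.33 ± 0.16 (SE, 95% interval -0.01 to 0.67, edgeR adjusted p = 0.535). Without coculture 1 and 2, SEMA3C was called higher at 0.48 ± 0.10 (edgeR adjusted p = 0.0226), the 1 member higher in that alternative. That fit tested 15309 genes, and the share of them called higher is not given here. The count of 1 is therefore not set against all genes.

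SEMA3F, which acts mainly through NRP2, had control values from 12.1 to 17.3 CPM. Its values were 30.1 and 26.6 CPM in coculture 1 and 2, and the other 4 coculture libraries 11.2 to 16.2. Its log2 fold change was 0.33 ± 0.28 with all libraries and -0.15 ± 0.15 without those 2 (edgeR adjusted p = 0.758 and 0.71). SEMA3F overlaps its antisense gene SEMA3F-AS1 over 1041 bases, with 585 counts against 7266 for SEMA3F. SEMA3A, which collapses growth cones through NRP1 and A plexins, was at 6.79 ± 1.56 CPM in controls and 7.26 ± 0.789 in coculture. SEMA3E, which binds PLXND1 without a neuropilin, was at 2.64 ± 0.889 and 3.14 ± 0.520 CPM. Neither was called (edgeR adjusted p = 0.887 and 0.774).

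Of the 6 class 4 semaphorins, 5 were tested and 0 called. SEMA4B varied more among the coculture libraries than between the groups. Controls 1 to 4 held 703, 489, 482 and 509 CPM. Coculture 1 and 2 held 1123 and 1228 CPM, and coculture 3 to 6 held 473, 542, 555 and 535. The 4 latter libraries lay within the range of the controls or just below it. SEMA4B had a log2 fold change of 0.44 ± 0.28 with all libraries (edgeR adjusted p = 0.653) and -0.07 ± 0.11 without coculture 1 and 2 (edgeR adjusted p = 0.846). SEMA4B alone made up 34.3% and 36.8% of the counts of the 31 genes in coculture 1 and 2, and 20.1% to 25.1% in the other 8 libraries.

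SEMA4G, a class 4 semaphorin at low level, had the largest relative spread over the coculture libraries among the tested members, with an SD of 81.3% of the mean. Its controls held 2.86, 3.14, 1.46 and 1.78 CPM. It stood at 8.03 and 7.37 CPM in coculture 1 and 2, against 1.38, 1.26, 2.20 and 2.46 in coculture 3 to 6. SEMA4G had a log2 fold change of 0.71 ± 0.54 with all libraries and -0.36 ± 0.29 without coculture 1 and 2, not called in either. The interval of SEMA4G overlaps that of MRPL43 on the other strand by 7797 bases. MRPL43 had 34920 counts and SEMA4G 1400, and with no stated strand setting reads of the overlap cannot be told apart.

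The other class 4 members showed smaller differences. SEMA4D, which signals through PLXNB1 and is also a product of T cells, was at 28.5 ± 5.14 CPM in controls and 26.6 ± 4.43 in coculture. It overlaps SECISBP2 on the other strand by 6327 bases, with 11025 counts for SECISBP2 and 11807 for SEMA4D. SEMA4C, the ligand of PLXNB2, was at 50.5 ± 2.87 and 51.7 ± 7.77 CPM. SEMA4F was at 22.6 ± 1.34 and 26.6 ± 7.34 CPM, with the 2 highest values, 34.1 and 37.5 CPM, in coculture 1 and 2. Their edgeR adjusted p-values ran from 0.714 for SEMA4F to 0.952 for SEMA4C.

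Of the class 5 to 7 semaphorins, 5 of 7 were tested and 0 called. SEMA6B held 376, 324, 277 and 284 CPM in controls 1 to 4. Coculture 1 and 2 held 472 and 449 CPM, above every control, and coculture 3 to 6 held 273, 249, 314 and 276. SEMA6B had a log2 fold change of 0.10 ± 0.19 with all libraries and -0.19 ± 0.10 without coculture 1 and 2 (edgeR adjusted p = 0.896 and 0.423). SEMA6C, another transmembrane class 6 member, was at 6.89 ± 1.55 CPM in controls and 9.62 ± 3.87 in coculture, with 15.5 and 13.3 CPM in coculture 1 and 2. Its log2 fold change was 0.48 ± 0.27 with all libraries and 0.06 ± 0.17 without those 2 (edgeR adjusted p = 0.611 and 0.92). SEMA6A, a ligand of PLXNA2 and PLXNA4, was at 1.65 ± 0.366 and 1.91 ± 0.754 CPM, and overlaps SEMA6A-AS1 and COMMD10 on the other strand (92 and 3992 counts, against 781).

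SEMA7A was even across the coculture libraries. It lay between 178 and 220 CPM in coculture, around a median of 212, and at 234, 170, 248 and 237 CPM in the controls. SEMA7A had a log2 fold change of -0.11 ± 0.11, with a 95% interval from -0.34 to 0.12. SEMA5A, a membrane semaphorin with thrombospondin repeats, was at 5.95 ± 1.02 CPM in controls and 5.49 ± 1.56 in coculture (edgeR adjusted p = 0.898). Without coculture 1 and 2 its log2 fold change was -0.41 ± 0.16, not called (edgeR adjusted p = 0.269).

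Among the A plexins, PLXNA4 was the 1 of 4 members called. PLXNA1, the most abundant, held 235, 233, 204 and 197 CPM in controls 1 to 4. Coculture libraries 1 to 6 held 263, 207, 197, 192, 235 and 199 CPM, with values above, among and below the controls. PLXNA1 had a log2 fold change of -0.01 ± 0.10, with a 95% interval from -0.23 to 0.21. PLXNA2, a receptor of SEMA6A, was at 43.9 ± 7.83 CPM in controls and 40.5 ± 3.51 in coculture, and PLXNA3, which with NRP2 takes SEMA3F, at 7.90 ± 1.18 and 8.72 ± 2.16. PLXNA1 carried most of the class, and the summed level of the 4 A plexins was 27.9 ± 2.99 RPKM in controls and 27.2 ± 3.19 in coculture. In that sum PLXNA4 accounted for 0.726 ± 0.146 RPKM in controls and 0.345 ± 0.108 in coculture.

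None of the B, C and D plexins was called by edgeR. PLXNB2 held 362, 384, 327 and 322 CPM in controls 1 to 4. Its coculture libraries 1 to 6 held 396, 389.8, 288, 270.2, 388 and 331 CPM, and the groups overlapped. Its log2 fold change was -0.02 ± 0.12, with a 95% interval from -0.28 to 0.24. PLXNB1 was at 17.9 ± 2.41 CPM in controls and 17.1 ± 2.46 in coculture. PLXNB3, a receptor of SEMA5A, was at 28.9 ± 4.60 and 34.7 ± 7.94 CPM, with its 2 highest values, 42.6 and 45.8 CPM, in coculture 1 and 2. PLXND1 held 57.5, 51.6, 49.0 and 47.5 CPM in controls 1 to 4. In coculture 1 to 6 it held 69.3, 68.6, 45.9, 45.2, 57.5 and 53.3 CPM, with overlap and with its 2 highest values in coculture 1 and 2 (log2 fold change 0.14 ± 0.13).

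PLXNC1, the plexin of SEMA7A that is also found on neutrophils and monocytes, had the largest positive value of the tested members, from few counts. The controls held 38, 30, 16 and 9 counts, or 0.812, 0.741, 0.388 and 0.203 CPM. The coculture libraries held 25 to 55 counts, or 0.596 to 1.19 CPM around a median of 0.908. The groups overlapped, and the log2 fold change was 0.76 ± 0.38 (95% interval -0.06 to 1.59, edgeR adjusted p = 0.551). In the same coculture libraries 13 of 15 tested leukocyte and myeloid markers were called higher by edgeR, against 1.14% of all genes tested. Among them was the myeloid lysozyme LYZ, at 13.9 ± 2.17 CPM against 0.0860 ± 0.0783 in controls. The part of such cells in the PLXNC1 value was not tested. PLXNC1 also overlaps CEP83 on the other strand by 38844 bases, and CEP83 had 2985 counts against 329.

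The neuropilins showed no called difference with edgeR. NRP1, which serves SEMA3A and VEGF, varied within the controls more than between the groups. Controls 1 to 4 held 239, 252, 152 and 150 CPM, and coculture 1 to 6 held 123, 145, 177, 172, 230 and 199 CPM. Coculture 1 and 2 were the lowest of the 10 libraries. The log2 fold change was -0.19 ± 0.19 (95% interval -0.60 to 0.23, edgeR adjusted p = 0.799), and without coculture 1 and 2 it was -0.04 ± 0.18. NRP2 was at 222 ± 21.8 CPM in controls and 227 ± 26.7 in coculture, with a 95% interval of the log2 fold change from -0.19 to 0.25.

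Coculture 1 and 2 set the highest values of many members. In 14 of the 25 tested members (56%) both libraries lay above the other 8, against 22.4% of all genes, and in 1 (4%), NRP1, both lay below, against 22.3%. The 14 were the semaphorins SEMA3F, SEMA4B, SEMA4C, SEMA4F, SEMA4G, SEMA6A, SEMA6B and SEMA6C, the plexins PLXNA3, PLXNB2, PLXNB3, PLXNC1 and PLXND1, and NRP2. These libraries were singled out from the data and are not a group of the study, so no test was made. With all libraries 16 members had a positive and 9 a negative log2 fold change. Without coculture 1 and 2 there were 6 and 19, with a median of -0.09 over the members and -0.01 over all genes. In both fits PLXNA4 was called lower.

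**Figure D3:**
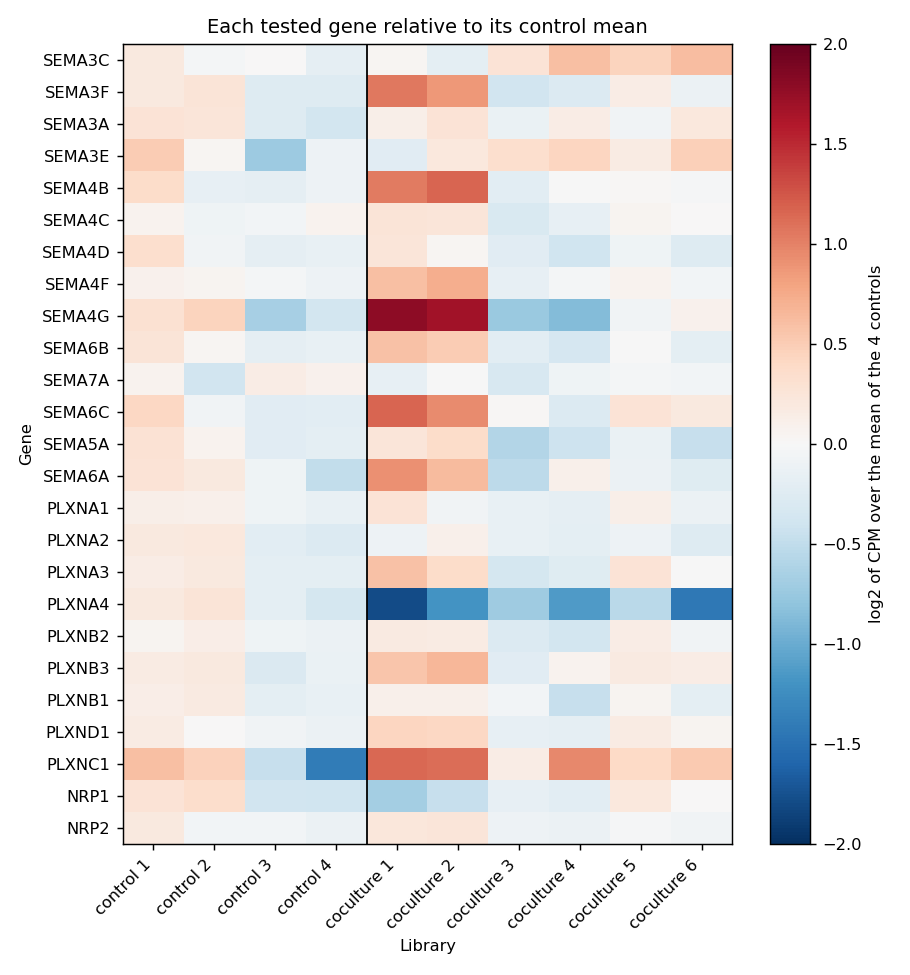
Log2 of the CPM of each tested gene over its mean in the 4 controls (colour), with libraries as columns and genes as rows. The columns of coculture 1 and 2 are both red for SEMA3F, SEMA4B, SEMA4C, SEMA4F, SEMA4G, SEMA6A, SEMA6B, SEMA6C, PLXNA3, PLXNB2, PLXNB3, PLXNC1, PLXND1 and NRP2, among others, and the PLXNA4 row is blue in all 6 coculture columns.

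**Figure D4:**
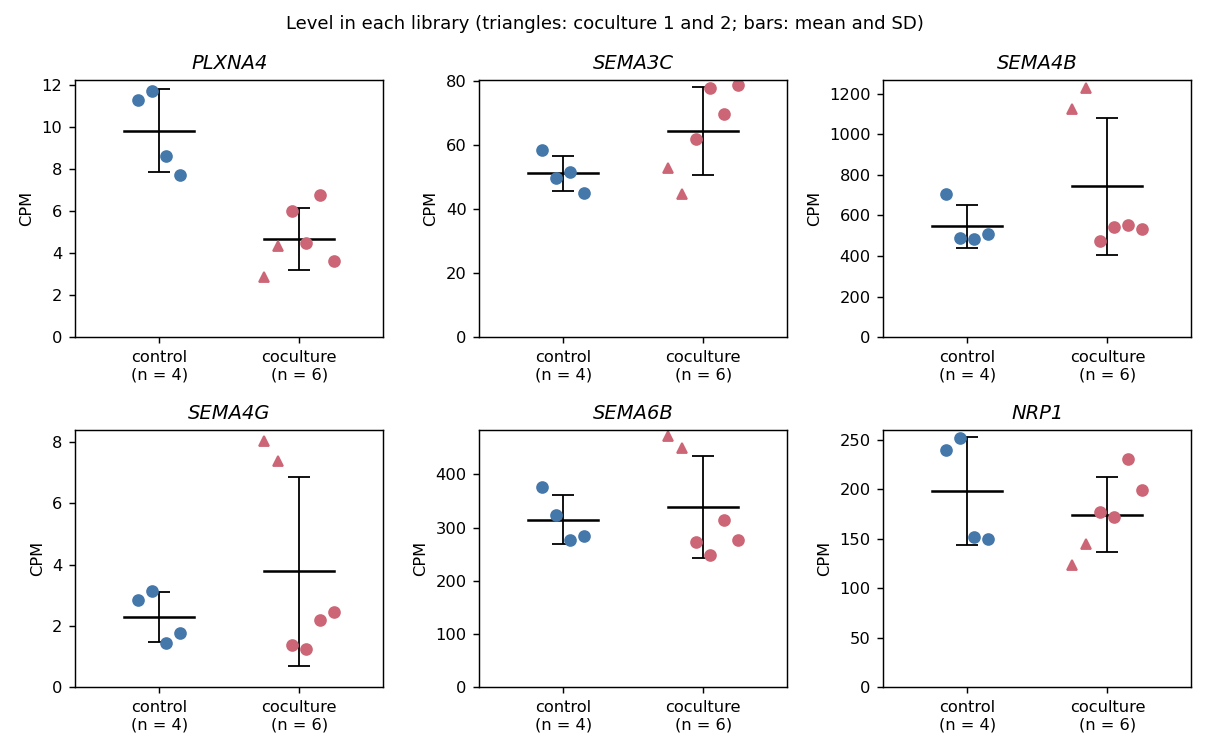
CPM of PLXNA4, SEMA3C, SEMA4B, SEMA4G, SEMA6B and NRP1 (linear axes from 0) in each control and coculture library; triangles are coculture 1 and 2, and bars give mean and SD. PLXNA4 runs from 2.84 to 6.77 CPM in coculture and from 7.70 to 11.7 in controls, while the other 5 genes overlap between groups.

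The other genes of the pathway were read from lists, and 1 gene was called in each of 4 lists. Beside these counts, edgeR called 1.14% of all genes tested higher and 0.186% lower. Each list count rests on a single gene, and no list was tested as a set. Of 17 co-receptors and other receptors of semaphorins, 10 were tested, 1 was higher and 0 lower. That 1 was TYROBP, the signaling adaptor that couples TREM2 and plexin A1 in myeloid cells. TREM2, on the same list, had 2 control and 4 coculture counts and was not tested. TYROBP had 0 counts in each of the 4 controls and 54, 29, 53, 31, 48 and 85 in coculture 1 to 6. TYROBP was at 1.18 ± 0.507 CPM in coculture, at least 17.0-fold higher than the mean floor of 3 counts per control library (edgeR adjusted p = 0.000874). The part of myeloid cells in the coculture libraries was not tested, and TYROBP itself is 1 of the 25 leukocyte and myeloid markers. Named after their values were seen were MET, the HGF receptor that associates with B plexins, and the VEGF receptors KDR, FLT1 and FLT4. MET was at 296 ± 56.4 CPM in controls and 291 ± 12.8 in coculture. KDR had 1 control and 1 coculture count, FLT1 had 0 control and 31 coculture counts, and neither was tested. FLT4 had 30 control and 90 coculture counts and was not called (edgeR adjusted p = 0.613). The list had a median log2 fold change of 0.16, also with TYROBP at its bound, against 0.01 over all genes.

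Of the 10 VEGF family members and other ligands of neuropilins, 7 were tested and edgeR called 0. LGALS1, galectin 1, the most abundant of them per length, was at 872 ± 51.1 CPM in controls and 1119 ± 325 in coculture, with 1461 and 1594 CPM in coculture 1 and 2 (log2 fold change 0.36 ± 0.18, edgeR adjusted p = 0.558). VEGFA, the vessel growth factor that competes with class 3 semaphorins for NRP1, was named after its value was seen. It was at 69.3 ± 11.2 and 112 ± 38.6 CPM, with 160 and 158 CPM in coculture 1 and 2 (edgeR adjusted p = 0.282).

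Of 9 proteases known to cut semaphorins or their receptors, 8 were tested, 0 higher and 1 lower. BACE1, the beta-secretase that sheds several membrane proteins of neurons, fell from 55.6 ± 3.35 to 40.0 ± 4.39 CPM. Controls held 51.2 to 59.3 CPM and coculture 33.8 to 46.4, with no overlap (log2 fold change -0.47 ± 0.10, edgeR adjusted p = 0.0297). Its edgeR adjusted p was 0.0568 without coculture 2, 0.0557 without coculture 4 and 0.0778 without coculture 6. It was 0.0869, 0.0505, 0.141 and 0.109 without control 1, 2, 3 and 4 in turn.

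Of 42 intracellular partners of plexins and neuropilins, 38 were tested, 1 was higher and 0 lower. LIMK2, a kinase that phosphorylates cofilin and so steadies actin filaments, rose from 23.0 ± 1.95 to 43.4 ± 7.37 CPM. Controls held 20.3 to 25.02 CPM and coculture 34.7 to 54.2, and the groups did not overlap. LIMK2 had a log2 fold change of 0.92 ± 0.13 (edgeR adjusted p = 0.00295), and it was called on each of the 10 single omissions (up to 0.0178). The list median was 0.06.

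Other guidance families, the netrins, slits, ephrins and their receptors, had 45 genes, of which 30 were tested, 1 was higher and 0 lower. UNC5B, a receptor of netrins, rose from 26.4 ± 3.91 to 61.8 ± 21.5 CPM. Its controls held 23.0 to 31.3 CPM. Values were 98.6 and 73.6 CPM in coculture 1 and 2 and the other 4 coculture libraries 37.2 to 56.7, all above the controls. UNC5B had a log2 fold change of 1.23 ± 0.23 (edgeR adjusted p = 0.0194). The adjusted p was 0.0573, 0.0897 and 0.0962 without control 2, 3 and 4, and 0.0571 with no filter on low counts. Named after their values were seen, UNC5C and NTNG1 of the same list lay below every control in coculture. UNC5C was at 14.8 ± 3.54 CPM in controls and 7.94 ± 2.40 in coculture, and NTNG1 at 48.9 ± 4.24 and 39.2 ± 3.03. Neither was called (edgeR adjusted p = 0.119 and 0.159). With 1 of 30 called here and 1 of 25 among the semaphorins, plexins and neuropilins, both counts rest on single genes.

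**Figure D5:**
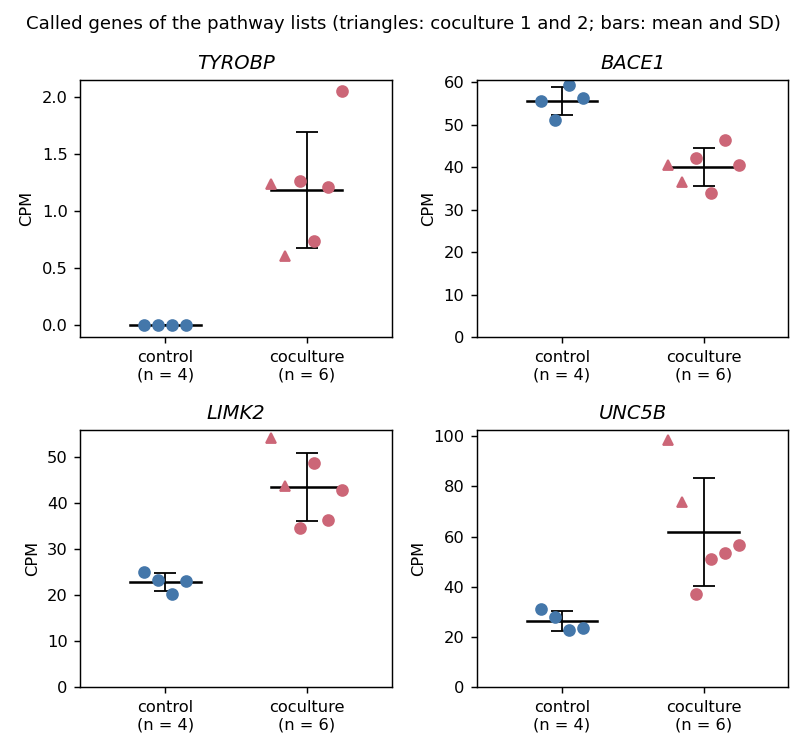
CPM of TYROBP, BACE1, LIMK2 and UNC5B in each control and coculture library (linear axes); triangles are coculture 1 and 2, and bars give mean and SD. For each gene the coculture points do not overlap the controls: below them for BACE1, above them for TYROBP, LIMK2 and UNC5B.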

How the data were processed

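RNA-seq counts were compared between 6 coculture and 4 control libraries. The authors deposited raw read counts per gene symbol, with a gene length and coordinates. The submitters' processing notes name GRCh38.p10, HISAT2 2.0.4 and BWA, without roles. No source used here gives the counter, the annotation, how the length was derived or the strand setting. The miRNA table was not used.

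Counts were fitted in R 4.3.3 with edgeR 4.0.16 (TMM, filterByExpr by group, robust glmQLFit and glmQLFTest), with Benjamini-Hochberg adjustment over all 15629 genes tested and a threshold of 0.05. CPM uses TMM library sizes, and RPKM divides CPM by the deposited length. SE is the log2 fold change divided by the square root of F. Intervals are 95%, from SE and the total (residual and prior) degrees of freedom. Alternatives were DESeq2 1.42.0, limma-voom (limma 3.58.1), other size factors, no filter, a replicate block and left-out libraries. Principal components used log2(CPM + 1).

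Values in every library are given for called members, for members whose groups did not overlap with a mean of at least 1 CPM in the higher group, and for the most abundant member of each class per length. From each list, called genes are named, up to 4, or else the most abundant gene. Members and lists were chosen with earlier results of these data known. Further members with values by library were chosen after those were seen. All list symbols were matched, VEGFD as FIGF.

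No library pair within a group agreed within sampling noise (lowest chi-square 6.86 per degree of freedom, controls 3 and 4). The closest coculture pairs were 1 and 2 (12.3), 5 and 6 (12.6) and 3 and 4 (13.5), against 18.9 to 142 for the others. Controls 1 and 2 were at 20.1, and the remaining control pairs at 30.1 to 61.5. Whether neighbouring numbers share a culture is not stated, so p-values may rest on fewer independent cultures than libraries. Reads had no stated molecular identifiers, so floors of 3 counts cover counting error only. On simulated counts for this comparison (15411 genes), 39.6% of genes changed 1.5-fold, 68.8% changed 2-fold, 87.2% changed 4-fold and 97.9% changed 8-fold were recovered, and 14 of 15220 unchanged genes were called. Those 14 false calls stood beside 19, 33, 41 and 47 recovered genes at these sizes in turn. The simulated libraries varied independently around 1 mean per gene, without the shift shared by coculture 1 and 2. Promoter windows are from RefSeq (GRCh38.p14).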

Additional observations from a re-analysis of the deposited data

Results flagged for a closer look

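SEMA4B in control 1 stood away from the other 3 controls. It was at 703 CPM, where the others held 482 to 509 CPM. Of 50 sets of libraries checked, each of the 25 tested members in each group, this was the 1 in which a single library lay that far from the rest, and chance gives about 1 in 20.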

How the results depend on the processing

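PLXNA4 kept its direction in all 16 alternatives, from -1.21 to -0.93, and was not called in 7 of the 10 single omissions or with the replicate block. The number of members higher was 0 in every alternative but that without coculture 1 and 2, where it was 1, SEMA3C. The number of members lower was 0 to 1 on leaving out single libraries and 0 with the replicate block.

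Over all genes, 178 were higher and 29 lower with edgeR. DESeq2 gave 393 and 95, and the replicate block 100 and 10. Single omissions gave 112 to 204 higher and 4 to 36 lower genes, with the lowest values without control 4. Without coculture 1 and 2 there were 112 lower genes of 15309 tested. The cause of these shifts was not tested.

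Groups share the replicate numbers 1 to 4. Deviations of same-numbered libraries correlated at 0.39, -0.08, 0.27 and 0.19, so the numbers did not pair the libraries throughout, and not every library correlated best with its own number. With the replicate block PLXNA4 was at -1.18 (edgeR adjusted p = 0.147), and TYROBP and BACE1 had adjusted p-values of 0.0615 and 0.0825. A 2-fold change of a member with few counts, such as PLXNC1 or SEMA4G, lay within its interval.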

Other observations

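Some members that follow each other on a chromosome differed widely in level, and others less. On chromosome 7, SEMA3C, SEMA3E, SEMA3A and SEMA3D follow each other between 80742538 and 85187176 in the deposited table. The gaps between them are 2.44, 0.308 and 0.502 megabases in that order, so SEMA3C is not a close neighbour. In the controls these genes stood at 9.89 ± 1.07, 0.398 ± 0.134, 0.923 ± 0.212 and 0.00695 ± 0.00781 RPKM (SD, n = 4). On chromosome 3, SEMA3F and SEMA3B lie 78482 bases apart, at 3.99 ± 0.767 and 0.0117 ± 0.0104 RPKM. PLXNB1 lies 1.72 megabases from SEMA3F, at 1.61 ± 0.216 RPKM. On the X chromosome, PLXNB3 and PLXNA3 lie 0.679 megabases apart, at 4.54 ± 0.721 and 1.17 ± 0.175 RPKM.

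Receptors and their known ligands were not at matched levels in the controls. PLXNB2 was at 47.7 RPKM and its ligand SEMA4C at 12.4, while PLXNB1 was at 1.61 and its ligand SEMA4D at 4.23. SEMA7A was at 65.7 RPKM, against 0.0730 for its plexin receptor PLXNC1 and 199 for ITGB1, the integrin chain that also binds it. ITGB1 was singled out after its value was seen. SEMA3E was at 0.398 RPKM, against 7.36 for PLXND1.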
